A study of Mus musculus with 9 samples.

Results

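The genes described here are 48 postsynaptic scaffold and synaptic adhesion genes, of 48526 genes counted in mouse medial ganglionic eminence (MGE) at embryonic day 14.5. They were chosen by gene symbol: 16 scaffolds (the DLG, DLGAP, SHANK and HOMER families, Gphn and Syndig1) and 32 adhesion genes of 12 classes, among them neurexins, neuroligins, neurexophilins and receptor phosphatases. Both groups are broad: Syndig1, counted with the scaffolds, encodes a membrane protein. Sorcs1, a sorting receptor, and Ppfia2, a liprin, are counted with the adhesion genes. All 48 symbols matched 1 row each. The MGE is the ventral forebrain eminence from which many cortical interneurons migrate. RNA sequencing compared 4 control with 5 Ctnnb1 knockout libraries of strain C57BL/6. Ctnnb1 encodes beta-catenin, which transmits canonical Wnt signals and joins cadherins to the cytoskeleton.

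All 9 libraries carried Nkx2.1-cre, a Cre recombinase active in cells with a history of Nkx2-1 expression, and the Rosa26-YFP reporter. Control replicates 1 to 3 had no floxed Ctnnb1 allele, control replicate 4 was Ctnnb1fl/wt, and knockout replicates 1 to 5 were Ctnnb1fl/fl. Cells without a history of the Cre keep Ctnnb1 in every group. The labels name MGE tissue, their protocol mentions both collected cells and removed MGE, and none says whether libraries came from separate embryos. The p-values below cover only differences between single libraries, part of which may be technical. Nkx2-1, which defines the MGE, was at 3466 to 6698 normalized counts over the 9 libraries, and Lhx6, of MGE-derived neurons, at 1968 to 6066. A normalized count is the deposited value, by its steps the reads of a gene over 1 size factor for its library. The steps between the values give 5120585 to 5569444 reads per library, an estimate, since the read counts themselves were not used here.

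Excitatory synapses are held together on the receiving side by layered scaffold proteins. DLG proteins bind receptors at the membrane, DLGAP proteins link DLG to SHANK, and SHANK binds HOMER and, through it, metabotropic receptors. Gephyrin, encoded by Gphn, has the corresponding place at inhibitory synapses. Adhesion molecules span the cleft: presynaptic neurexins bind neuroligins, LRRTM proteins and secreted neurexophilins, and presynaptic receptor phosphatases of the LAR class bind SLITRK, SALM and IL1RAPL proteins. At this embryonic stage MGE neurons are newly born or migrating, and most of these genes are known from later synapses.

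Ctnnb1 (chromosome 9, 120929216 to 120960507, mm10) checked the labels. It stood at 9841, 9960, 9967 and 9545 normalized counts in control replicates 1 to 4 and at 7103, 7661, 7133, 6572 and 5477 in knockout replicates 1 to 5. No knockout library reached the level of a control, and the knockout mean was 69.1% of the control mean. The log2 fold change was -0.54 (adjusted p = 0.000811, standard error, SE, 0.0960). The sources used here do not say which exons the floxed allele loses, and reads of a recombined transcript may be included.

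Of the 48 genes, 43 had a mean of at least 10 normalized counts over the 9 libraries and were tested with limma. In the knockouts 23 were higher and 4 lower at an adjusted p under 0.05, and 16 did not pass. The share called was 62.8% of the tested members against 34.5% of all 13780 genes tested. The excess lay on 1 side: 53.5% of the members were higher against 17.2% of all genes, and 9.30% were lower against 17.3%. A log2 fold change of at least 1 with a passing p was found for 18 members, 41.9%, against 4.23% of all genes. The median log2 fold change of the tested members was 0.85, and that of all tested genes was -0.01. Scaffolds (9 higher, 1 lower, 6 not called, median 0.84) and adhesion genes (14 higher, 3 lower, 10 not called, median 1.02) gave similar counts, and this difference was not tested. Knockout and control values did not overlap in 27 of the 43 tested members, 62.8%, against 29.1% of all genes. These were the 27 called members.

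**Figure D1:**
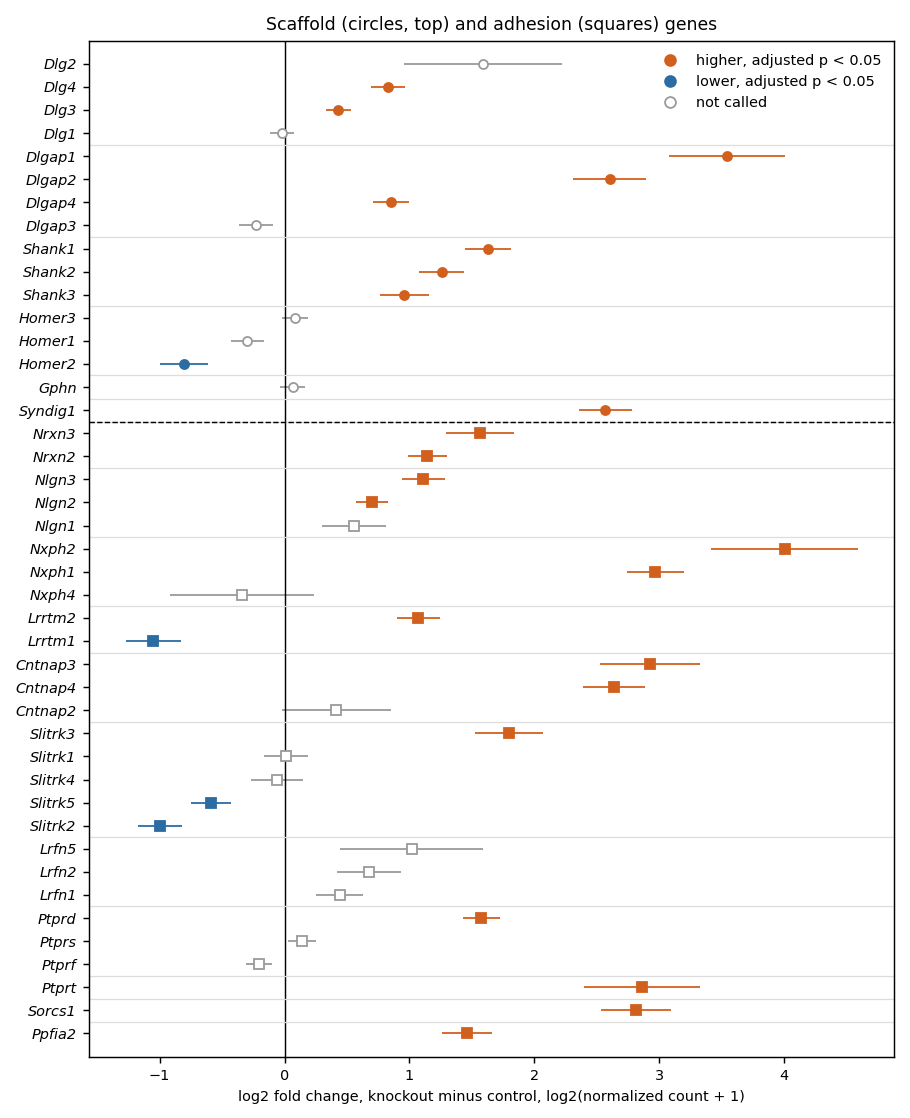
Log2 fold change, knockout minus control on the log2(normalized count + 1) scale, for the 43 tested members grouped by family, with bars of 1 SE. Circles are scaffolds and squares adhesion genes, and filled symbols passed an adjusted p of 0.05. Values run from -1.05 for Lrrtm1 to 4.0 for Nxph2, and 23 filled symbols lie above 0 against 4 below.

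Genes of neurons in general were also higher in the knockouts. Of 10 pan-neuronal markers 6 were higher and 0 lower, with a median log2 fold change of 0.74, and their summed level was 16761 to 21356 in controls and 29368 to 36552 in knockouts. Dcx, the doublecortin gene of young neurons, changed most among them, by 1.33. Of 10 progenitor markers 6 were lower, with sums of 31296 to 37413 in controls and 16010 to 24366 in knockouts. Of 10 MGE and interneuron markers 8 were higher, with sums of 11565 to 21152 and 22259 to 25595. Their median log2 fold change was 1.20 and the largest was 4.89, for Sst. Sst met the minimum of 10 for testing only through the knockouts (mean 8.01 in controls and 283 in knockouts). The tested members had a median of 0.85 and a largest value of 4.0, for Nxph2, whose control mean of 3.51 was also under that minimum. For 23 members the log2 fold change exceeded the pan-neuronal median, and for 15 it exceeded that of Dcx. The part of these shifts in the members' values was not tested. In bulk RNA, more cells of a type and more RNA per cell cannot be told apart.

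Markers of other cell types were not called, with 1 exception, but control replicate 1 stood apart, as did knockout replicate 4 for a few markers. Cortical excitatory markers summed to 2762 in control replicate 1, with 142 to 216 for control replicates 2 to 4 and 196 to 647 among knockouts, and 0 of 10 were called. Choroid plexus markers summed to 2951 in control replicate 1, with 163 to 361 for control replicates 2 to 4 and 152 to 725 among knockouts, with 0 of 3 tested markers called. Neurod6, the first cortical marker, was at 626 in control replicate 1 and 4.98 to 79.6 elsewhere, and Ttr of the choroid plexus at 2691 and 16.1 to 384. Knockout replicate 4 had the highest choroid plexus sum of the knockouts (725). Its Otx2, of that list, was at 410 (83.1 to 106 in other knockouts, 143 to 285 in controls). Its Pax6, of the progenitor list, was at 493 (22.7 to 102 in other knockouts, 4.98 to 234 in controls). Ttr was instead highest among knockouts in replicate 2. None of the endothelial (sums 1331 to 1799 in controls and 1659 to 2024 in knockouts), microglial (150.5 to 233 and 106 to 208) or red blood cell markers (2693 to 10983 and 3203 to 7736) was called. Of 4 oligodendrocyte lineage markers 1 was higher, with sums of 205 to 287 and 230.5 to 408. Microglial Aif1, too low to be tested, was at 6.95 to 13.1 in controls and 2.02 to 6.73 in knockouts without overlap, and the 5 tested microglial markers had a median log2 fold change of -0.46. The part of these markers in the members' values was not tested.

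**Figure D2:**
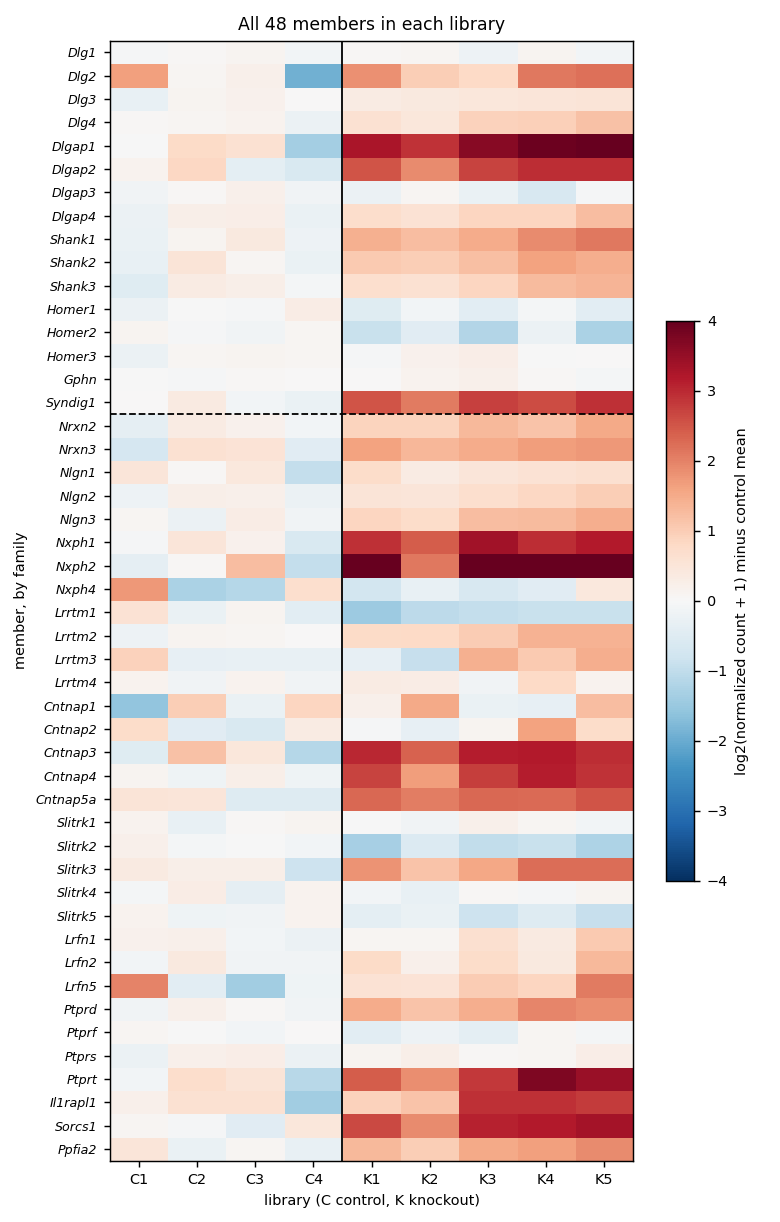
Each of the 48 members (rows, by family, scaffolds above the dashed line) in each of the 9 libraries (columns), as log2(normalized count + 1) minus the control mean, with the colour scale capped at 4 in either direction. The red rows run across all 5 knockouts, with knockout replicate 2 palest in most, and Dlg2, Nxph4 and Lrfn5 differ among the controls by more than the other tested members.

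The DLG genes encode the membrane layer of the scaffold. Dlg4, the main scaffold of mature excitatory synapses (chromosome 11, 70016942 to 70047522), was at 446, 457, 481 and 368 in control replicates 1 to 4 and at 669.6, 601, 826, 853 and 993 in knockout replicates 1 to 5. The lowest knockout lay above the highest control, with a log2 fold change of 0.83 (adjusted p = 0.000559, SE 0.136). Dlg3, a DLG protein prominent early in development, was higher by 0.43 (484 ± 64.8 in controls, SD, n = 4, and 649 ± 36.1 in knockouts, n = 5, adjusted p = 0.00451). Dlg1 was at 352 ± 23.9 and 348 ± 30.6, a log2 fold change of -0.02 (adjusted p = 0.907, SE 0.0956). Dlg2 varied from 2.99 to 45.5 among controls and from 25.1 to 67.5 among knockouts, so the groups overlapped through control replicate 1. Its log2 fold change of 1.59 had an SE of 0.635 and did not pass (adjusted p = 0.0814). Without control replicate 1 it was 2.13 (adjusted p = 0.0112).

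The DLGAP genes, whose proteins bridge DLG and SHANK, held the largest increase among scaffolds. Dlgap1 (chromosome 17, 69969073 to 70821413) stood at 44.5, 78.5, 70.3 and 16.9 in the controls and at 442, 341, 583, 696 and 749.6 in the knockouts. The knockout mean was 10.7 times the control mean, and every knockout was above 4 times the highest control. The log2 fold change was 3.54 (adjusted p = 0.000982, SE 0.463). Dlgap2 (chromosome 8, 14095865 to 14847680) was at 22.2, 36.7, 15.1 and 13.0 in the controls and at 119.7, 77.9, 136, 162 and 161 in the knockouts. Knockout replicate 2 was the lowest knockout for both genes and still clear of the controls, and the log2 fold change of Dlgap2 was 2.60 (adjusted p = 8.81e-05, SE 0.292). Dlgap4 was higher by 0.85 (1230.2 ± 243 and 2211 ± 387, adjusted p = 0.000796). Dlgap3 was at 394 ± 47.7 and 340.1 ± 63.1, a log2 fold change of -0.23 that did not pass (adjusted p = 0.212).

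These unequal changes altered the make-up of the DLGAP family. Per kilobase of exon, Dlgap4 made up 59.0% to 62.6% of the family's summed level in the controls and 63.5% to 68.8% in the knockouts. Dlgap3 made up 33.6% to 39.2% in controls and 14.5% to 27.1% in knockouts, without overlap. The share of Dlgap1 was 0.47% to 1.63% in controls and 5.64% to 10.2% in knockouts, and that of Dlgap2 0.88% to 2.22% and 3.74% to 6.92%. Dlgap4 thus remained the largest component in every library, while the largest fold changes were in the 2 genes with the lowest control levels per kilobase. A rise of some shares lowers others, and Dlgap3 itself was not called. These shares are descriptions and were not tested.

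All 3 SHANK genes, which encode the deep layer of the scaffold, were higher. Shank1 (chromosome 7, 44310253 to 44360572) was at 174, 223, 272 and 179 in the controls and at 559, 496, 584, 783 and 902 in the knockouts. The groups were far apart, with a log2 fold change of 1.63 (adjusted p = 0.000133, SE 0.186). Shank2 (chromosome 7, 144001928 to 144424494) was at 94.0, 166, 124 and 96.7 against 243, 229.8, 269.8, 359 and 321. The log2 fold change was 1.26 (adjusted p = 0.000247, SE 0.176). Shank3 was higher by 0.96 (86.8 ± 21.6 and 169 ± 40.7, adjusted p = 0.00234). Knockout replicates 4 and 5 had the highest values of all 3 genes. Per kilobase, Shank1 made up 44.0% to 53.6% of the family in controls and 57.0% to 61.5% in knockouts.

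The HOMER genes, whose proteins bind SHANK, did not share this rise. Homer2 (chromosome 7, 81600481 to 81707527) was at 179.9, 159.9, 152 and 177 in the controls and at 90.0, 121, 73.2, 141 and 69.5 in the knockouts. It was the only scaffold called lower, with a log2 fold change of -0.80 (adjusted p = 0.00541, SE 0.190). Knockout replicates 2 and 4 lay nearest the controls. Against control replicates 2 and 3 alone, which leaves out the control with cortical transcripts and the heterozygous one, it was -0.70 and no longer passed (adjusted p = 0.0807). Homer1, at 194 ± 30.9 and 157 ± 20.9, had a log2 fold change of -0.30 (adjusted p = 0.0929), and Homer3, at 396 ± 43.5 and 419 ± 41.1, of 0.08 (adjusted p = 0.581). Of the exon bases of Homer3, 25.4% lie under exons of Ddx49, and whether the counting used strand is not given in the sources used here.

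Gphn, the scaffold of GABA and glycine receptors, was at 172 ± 5.63 in controls and 180.5 ± 13.5 in knockouts, a log2 fold change of 0.06 (adjusted p = 0.650, SE 0.101). Its values ran from 164 to 199 over the 9 libraries, one of the narrowest ranges among the members. Syndig1 (chromosome 2, 149829211 to 150004392), which encodes a membrane protein associated with AMPA receptors, was at 12.1, 15.9, 11.1 and 9.96 in the controls and at 73.2, 53.8, 86.3, 79.4 and 97.7 in the knockouts. The lowest knockout was more than 3 times the highest control. The mean rose 6.37 times and the log2 fold change was 2.57 (adjusted p = 1.64e-05, SE 0.214). Of its exon bases, 11.8% lie under exons of C530025M09Rik.

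**Figure D3:**
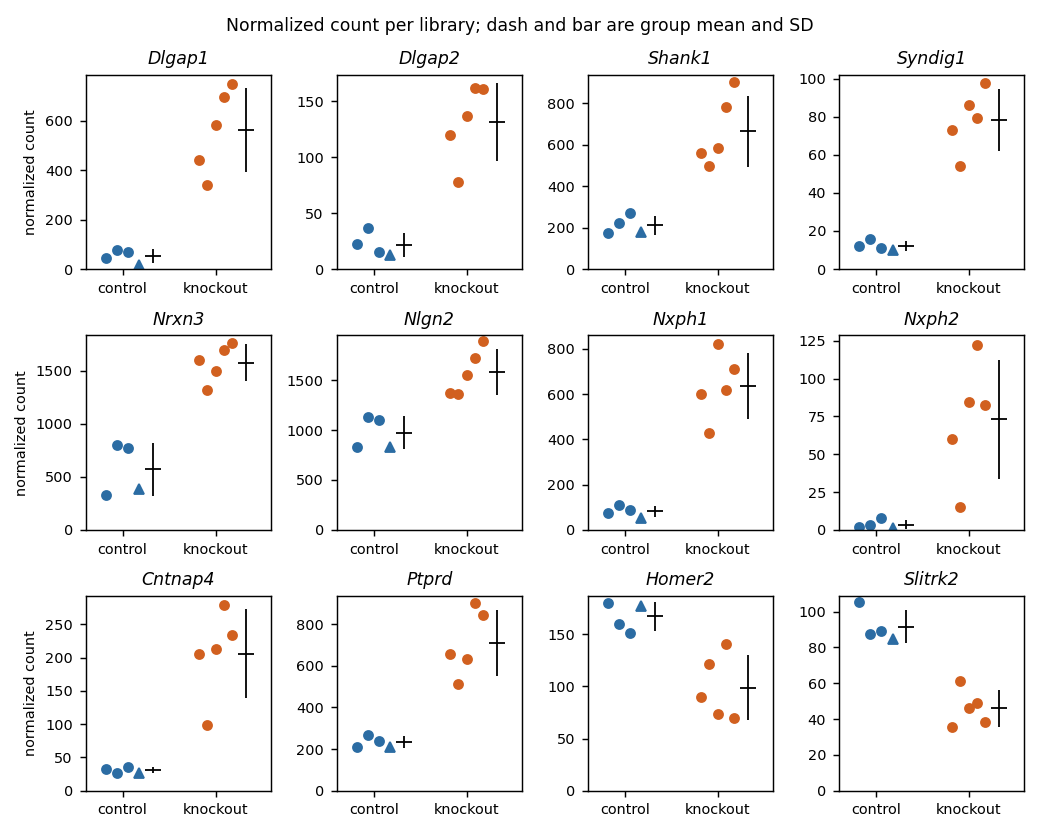
Normalized count in each library for 12 members, controls at left and knockouts at right, each axis from 0. The dash and bar beside each group are its mean and SD, with a triangle for control replicate 4, which carried 1 floxed allele. In the first 10 panels every knockout lies above every control, and in Homer2 and Slitrk2 every knockout lies below.

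Among the adhesion genes, both neurexins in the set were higher. Nrxn2 (chromosome 19, 6418731 to 6544169) was at 510.4, 826, 739.6 and 614 in the controls and at 1230.5, 1225, 1636, 1451 and 1875 in the knockouts. Its log2 fold change was 1.14 (adjusted p = 0.000265, SE 0.156). Nrxn3 (chromosome 12, 88722876 to 90334935) was at 329, 804, 772 and 387 against 1604, 1319, 1499.6, 1698 and 1761. Control replicates 1 and 4 lay at about the same low level and control replicates 2 and 3 higher, all below the knockouts. The log2 fold change of Nrxn3 was 1.56 (adjusted p = 0.00258, SE 0.272), and 1.52 with an adjusted p of 0.0505 when the replicate number was a block in the fit. Per kilobase, Nrxn3 was at 45.4 in controls and 125 in knockouts, and Nrxn2 at 48.7 and 107.

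Of the neuroligins, the postsynaptic partners of neurexins, 2 of 3 were higher. Nlgn2, the neuroligin of inhibitory synapses (chromosome 11, 69823122 to 69837784), was at 834, 1135, 1101 and 828 in the controls and at 1369, 1358, 1548, 1719 and 1894 in the knockouts. It rose by a log2 fold change of 0.70 (adjusted p = 0.00101, SE 0.127). Nlgn3 (chromosome X, 101299168 to 101325963) was at 68.7, 54.6, 79.4 and 57.8 against 118, 108, 151, 158 and 179, a log2 fold change of 1.11 (adjusted p = 0.000348, SE 0.170). Of the exon bases of Nlgn3, 41.2% lie under exons of the predicted gene Gm21986, so reads there may belong to either gene. Nlgn1, found mainly at excitatory synapses, was at 38.4 ± 14.9 and 53.1 ± 5.81, a log2 fold change of 0.55 that did not pass (adjusted p = 0.108). Per kilobase Nlgn2 made up 92.8% to 95.8% of the 3 genes in controls and 93.0% to 94.0% in knockouts.

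Neurexophilins are secreted ligands of alpha-neurexins, and 1 of them, Nxph2, had the largest log2 fold change of the tested members. Nxph1 (chromosome 6, 8948431 to 9249032) was at 76.8, 109, 89.4 and 50.8 in the controls and at 602, 427, 822, 619 and 713 in the knockouts. The knockout mean was 7.80 times the control mean, and the log2 fold change was 2.97 (adjusted p = 2.75e-05, SE 0.226). Nxph2 (chromosome 2, 23321246 to 23401973) was at 2.02, 2.98, 8.04 and 0.996 against 60.3, 15.4, 84.3, 122 and 82.6. Knockout replicate 2 lay far below the other knockouts but above every control. The log2 fold change of Nxph2, 4.0 (adjusted p = 0.000594, SE 0.586), depends on control values of at most 8.04. Its control mean of 3.51 lay under the minimum of 10 for testing, which it met only through the knockouts (mean 73.0). Nxph4 went from 9.93 to 85.9 in controls and from 14.8 to 34.3 in knockouts, with control replicates 1 and 4 the highest, and its log2 fold change of -0.34 (SE 0.575) did not pass (adjusted p = 0.679).

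The LRRTM genes encode postsynaptic leucine-rich neurexin ligands, and the 2 tested ones changed in opposite directions. Lrrtm1 (chromosome 6, 77242689 to 77257791) was at 98.0, 53.6, 69.3 and 47.8 in the controls and at 22.7, 30.8, 33.1, 34.4 and 34.3 in the knockouts. Its log2 fold change was -1.05 (adjusted p = 0.00242, SE 0.220), the only decrease above 1 in size among the members. Lrrtm2 (35209003 to 35215024 on chromosome 18) was at 36.4, 45.7, 45.2 and 42.8 against 72.2, 75.0, 86.3, 113 and 113, a log2 fold change of 1.07 (adjusted p = 0.000483, SE 0.174). Neither pair of groups overlapped. Per kilobase Lrrtm1 made up 65.7% to 79.6% of the family in controls and 34.2% to 42.7% in knockouts, and Lrrtm2 14.9% to 29.6% and 51.1% to 57.3%. Lrrtm1 was the largest component in all 4 controls and Lrrtm2 in all 5 knockouts. Lrrtm3 (0.962 to 9.07) and Lrrtm4 (3.97 to 8.61) were too low to be tested.

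Both tested LRRTM genes lie inside alpha-catenin genes on the opposite strand, and the alpha-catenins are partners of beta-catenin at the adherens junction. Ctnna2, the neuronal alpha-catenin and host of Lrrtm1, was at 957, 1069, 1149 and 929.7 in the controls and at 1469, 1406, 1643, 1407 and 1511 in the knockouts. It was higher by 0.54 (adjusted p = 0.000553, SE 0.0894), opposite to Lrrtm1. Ctnna1, the host of Lrrtm2, was at 1890.1, 1837, 1952 and 1935 against 1277, 1412, 1141, 1229 and 1038. It was lower by 0.65 on the log2 scale (log2 fold change -0.65, SE 0.0931, adjusted p = 0.000229), again opposite to the gene within it. None of the exon bases of Lrrtm1 and 1.58% of those of Lrrtm2 lie under exons of other genes. Lrrtm3 lies within Ctnna3 in the same way, and Ctnna3 was at 0 to 0.996 in every library. Lrfn1 also lies within a gene on the opposite strand, Samd4b, and there neither gene was called. The log2 fold change was 0.44 for Lrfn1 (adjusted p = 0.0850) and -0.06 for Samd4b (adjusted p = 0.660).

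**Figure D4:**
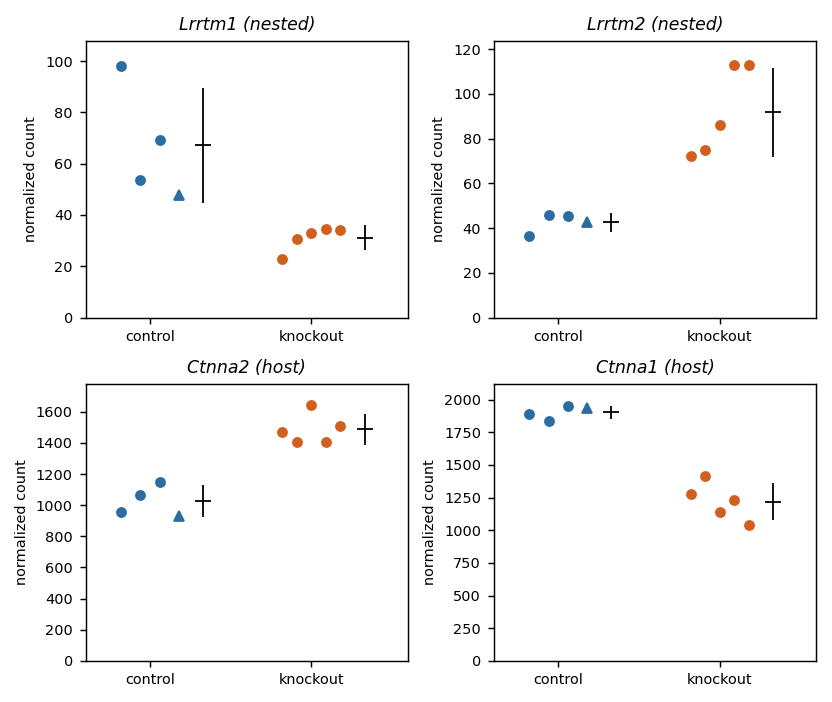
Normalized counts in each library of Lrrtm1 and its host gene Ctnna2 (left) and of Lrrtm2 and its host gene Ctnna1 (right), with each group's mean and SD and a triangle for control replicate 4. In each column the nested gene and its host changed in opposite directions, with no overlap between groups in any of the 4 panels.

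The CNTNAP genes encode relatives of the neurexins, known from axons and, for Cntnap4, from interneuron synapses. Cntnap3 (chromosome 13, 64736182 to 64903955) was at 10.1, 33.8, 20.1 and 5.98 in the controls and at 124, 77.9, 134, 139 and 119 in the knockouts, a log2 fold change of 2.93 (adjusted p = 0.000439, SE 0.402). Cntnap4 (chromosome 8, 112570043 to 112882717) was at 33.4, 26.8, 36.2 and 26.9 against 205, 99.0, 213, 279 and 234, a log2 fold change of 2.64 (adjusted p = 3.92e-05, SE 0.249). Both had their lowest knockout value in replicate 2, still more than 2 times the highest control. Cntnap2 ran from 59.3 to 149.6 in controls and from 71.2 to 277 in knockouts and was not called (log2 fold change 0.42, SE 0.435, adjusted p = 0.496). Per kilobase, Cntnap2 made up 35.7% to 67.1% of the family in controls and 13.8% to 28.7% in knockouts, and Cntnap4 23.8% to 37.5% and 41.4% to 52.5%. Cntnap4 was the largest component in all 5 knockouts.

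Cntnap5a and Cntnap1 were below the minimum for testing. Cntnap5a was at 1.01, 0.993, 0 and 0 in the controls and at 5.93, 4.81, 6.02, 5.74 and 7.05 in the knockouts. The groups did not overlap, and it passed when no minimum was set (adjusted p = 0.000218). No fold is given, since no control exceeded 1.01. Cntnap1, which encodes a protein of the myelinated axon, ran from 1.01 to 10.9 in controls and 3.83 to 16.3 in knockouts.

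The SLITRK genes encode postsynaptic ligands of LAR-class phosphatases, and here the family split. Slitrk3, the partner of Ptprd at inhibitory synapses (chromosome 3, 73047265 to 73057803), was at 30.3, 27.8, 28.1 and 13.0 in the controls and at 85.1, 53.8, 71.2, 116 and 114 in the knockouts. That is a log2 fold change of 1.80 (adjusted p = 0.000396, SE 0.276). Slitrk2 (chromosome X, 66649318 to 66661393) was at 105, 87.4, 89.4 and 84.7 against 35.6, 61.5, 46.1, 48.8 and 38.3, a log2 fold change of -1.0 (adjusted p = 0.000751, SE 0.174). Slitrk5 (chromosome 14, 111675097 to 111683141) was at 124, 100.3, 102 and 125 against 86.1, 92.3, 62.2, 77.5 and 59.4, a log2 fold change of -0.59 (adjusted p = 0.0107, SE 0.159). The drop in Slitrk5 was narrow in knockout replicate 2 and, against control replicates 2 and 3 alone, was -0.44 and did not pass (adjusted p = 0.145). Slitrk1 (37.1 ± 4.94 and 37.2 ± 3.54, log2 fold change 0.01, adjusted p = 0.974) and Slitrk4 (29.3 ± 5.89 and 27.8 ± 3.18, -0.06, adjusted p = 0.847) had near-equal means.

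Summed over the 5 SLITRK genes, the normalized counts overlapped, at 280.3 to 327 in controls and 252 to 309 in knockouts, while the shares of 3 of them did not. Per kilobase of exon Slitrk3 made up 5.58% to 12.7% in controls and 24.6% to 47.5% in knockouts. Slitrk2 made up 21.9% to 24.3% and 9.15% to 16.9%, and Slitrk5 42.1% to 49.4% and 22.8% to 38.8%. The ranges of Slitrk1 and Slitrk4 overlapped between groups.

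**Figure D5:**
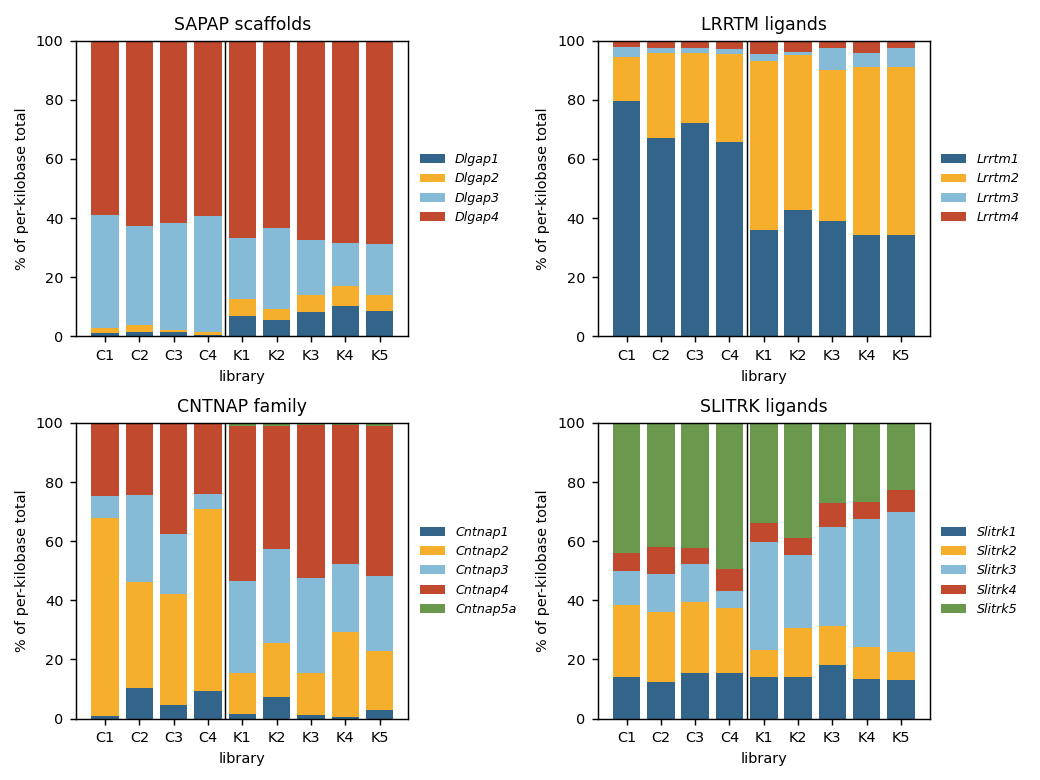
Share of each gene in its family's summed level per kilobase of exon, in percent, for each control (C1 to C4) and knockout (K1 to K5) library, in 4 families. Dlgap1, Dlgap2, Dlgap4, Lrrtm2, Cntnap4, Slitrk3 and the untested Cntnap5a took larger shares in every knockout than in any control. Dlgap3, Lrrtm1, Cntnap2, Slitrk2 and Slitrk5 took smaller ones. Shares in a family are parts of the same total, so a share can fall without a lower level. Dlgap3 and Cntnap2 were not called.

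The receptor phosphatases that bind SLITRK, SALM and IL1RAPL proteins from the presynaptic side changed in 1 of 3 cases. Ptprd (chromosome 4, 75941238 to 78211961) was at 212, 270.2, 241 and 210.3 in the controls and at 657, 512, 631, 899 and 845 in the knockouts. Its log2 fold change was 1.58 (adjusted p = 2.97e-05, SE 0.150), with the lowest knockout well clear of the highest control. Ptprs had the highest level of all members per kilobase, 474 in controls and 517 in knockouts, with a log2 fold change of 0.14 (adjusted p = 0.353, SE 0.111). Ptprf was at 124 and 108 per kilobase, a log2 fold change of -0.21 (adjusted p = 0.138, SE 0.104). The share of Ptprd in the 3 phosphatases was 1.54% to 1.77% in controls and 3.29% to 5.96% in knockouts, so Ptprs remained the main one in every library (73.9% to 81.6%).

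Ptprt (chromosome 2, 161521990 to 162661147), a receptor phosphatase that binds itself across cells, was at 17.2, 30.8, 27.1 and 7.97 in the controls and at 105, 70.2, 138, 256 and 214 in the knockouts. The log2 fold change was 2.86 (adjusted p = 0.00152, SE 0.462), and 2.71 with an adjusted p of 0.0608 with the replicate block. Ppfia2 (chromosome 10, 106470339 to 106935952) encodes a liprin, which binds LAR-class phosphatases inside the presynaptic terminal. It was at 64.7, 37.7, 48.2 and 36.9 against 115, 91.3, 131, 144 and 170.3, a log2 fold change of 1.46 (adjusted p = 0.000187, SE 0.201). Of its exon bases, 24.5% lie under exons of Acss3. Sorcs1 (chromosome 19, 50143299 to 50678646), a sorting receptor that carries neurexins and AMPA receptors, was at 12.1, 10.9, 8.04 and 15.9 against 76.2, 45.2, 103, 111 and 123. The knockout mean of Sorcs1 was 7.80 times the control mean, and the log2 fold change was 2.82 (adjusted p = 2.95e-05, SE 0.282).

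The SALM genes, a family that includes postsynaptic ligands of the same phosphatases, gave no call among 3. Lrfn1 (151 ± 22.0 and 210.3 ± 64.2) had a log2 fold change of 0.44 (adjusted p = 0.0850), Lrfn2 (16.8 ± 3.4 and 28.1 ± 8.92) of 0.68 (adjusted p = 0.0534) and Lrfn5 (10.8 ± 13.1 and 16.4 ± 9.03) of 1.02 (adjusted p = 0.188). Control replicate 1 held Lrfn5 at 30.3, and the other controls, at 2.01 to 5.98, lay below every knockout (10.6 to 32.2). Without control replicate 1 its log2 fold change was 1.68 (adjusted p = 0.0115). Lrfn1 passed without knockout replicate 1 (adjusted p = 0.0469) or knockout replicate 2 (0.0375), and Lrfn2 without control replicate 2 (0.0384) or knockout replicate 2 (0.0300). Il1rapl1, another partner of Ptprd, was at 2.02, 2.98, 3.01 and 0 in the controls and at 3.96, 4.81, 19.1, 19.1 and 17.1 in the knockouts. It was below the minimum for testing and passed when none was set (adjusted p = 3.59e-05), with knockout replicates 1 and 2 close to the controls.

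The members' rise differed in size among the knockouts. Over all 48 members the mean log2(normalized count + 1) was 5.76 to 6.17 in controls and 6.75 to 7.34 in knockouts, with replicate 2 the lowest knockout and replicate 5 the highest. Of the 23 members called higher, 21 had their lowest knockout value in replicate 2, 13 their highest in replicate 5 and 9 their highest in replicate 4. Knockout replicate 2 also kept the most Ctnnb1 (7661) and replicate 5 the least (5477). The pan-neuronal mean was lowest in replicate 2 (10.04) and highest in replicate 5 (10.44). Other marker lists differed in order. The MGE and interneuron mean was lowest in knockout replicate 2 (10.39) but highest in replicate 3 (10.80). The progenitor mean was highest in knockout replicate 4 (10.16) and lowest in replicate 5 (9.60). Among controls, the heterozygous control replicate 4 was lowest for 13 of the 23 and control replicate 1 for 7. These are orders of single libraries, and their relation to genotype or makeup was not tested.

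Gene length is a property that the choice by symbol did not use. The members' genomic spans ran from 5.36 to 2271 kilobases with a median of 138, against 21.6 for all tested genes with a gene model. The median span was 168 kilobases for members called higher, 13.6 for those called lower and 94.3 for those not called. Slitrk2, Slitrk5 and Lrrtm1, 3 of the 4 lower members, are compact genes, while Homer2, the other lower member, spans 107 kilobases. Slitrk3, Lrrtm2 (6.02 kilobases) and Nlgn2 (14.7), which were higher, are compact as well. So are Slitrk1 (5.36), Nxph4 (9.09), Homer3 (11.5) and Slitrk4 (12.1), which were not called. The relation of span to direction was not tested, and spans of all called genes were not compared.

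Promoters of 34 members were matched in the RefSeq table (GRCm38.p6), and the 250 bases before each start were searched on both strands for 9 short motifs. A gene with several starts has several windows and was counted if any of them matched. There were 52 windows for the 34 members and 32851 for all 27025 genes, so more sequence was searched per member than per gene in the shares that follow. The core of the TCF/LEF motif, through which beta-catenin acts on DNA, was spelled CTTTGA. It occurred in 5 of the 34 members (Dlg1, Dlgap3, Homer1, Lrfn5 and Ppfia2), 14.7%, against 15.8% of all genes in the table. Among members called higher 1 of 15 held it, and among those called lower 0 of 4. The E-box CAGCTG, the kind bound by proneural factors, occurred in 9 of 34, 26.5%, against 14.7% of all genes, and was singled out after its share was seen. It lay in 5 of 15 higher and 1 of 4 lower members. Another E-box spelling, CAGATG, went the other way. It occurred in 4 of 34 members, 11.8%, against 16.3% of all genes, and in 0 of 15 higher members. The homeodomain letters TAATTA occurred in 0 of 34 members and 5.65% of all genes. The GC box GGGCGG occurred in 55.9% of members and 35.4% of all genes, and the median GC content was 57.2% in the members' windows and 52.4% in all. A match is a description of the letters only.

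A pair of windows is shown, 1 for each motif, both from genes that were higher in every knockout: Ppfia2 at chr10:106470060-106470309 on the plus strand, the only matched higher member with the TCF/LEF letters, and Ptprt at chr2:162661148-162661397 on the minus strand. Each runs from 5′ to 3′ in the direction of transcription, and capitals mark the motif.
Ppfia2: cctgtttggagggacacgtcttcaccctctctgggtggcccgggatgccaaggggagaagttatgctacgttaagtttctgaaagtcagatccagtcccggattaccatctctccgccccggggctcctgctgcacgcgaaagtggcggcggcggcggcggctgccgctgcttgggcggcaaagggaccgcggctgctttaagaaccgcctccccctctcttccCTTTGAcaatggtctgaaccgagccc
Ptprt: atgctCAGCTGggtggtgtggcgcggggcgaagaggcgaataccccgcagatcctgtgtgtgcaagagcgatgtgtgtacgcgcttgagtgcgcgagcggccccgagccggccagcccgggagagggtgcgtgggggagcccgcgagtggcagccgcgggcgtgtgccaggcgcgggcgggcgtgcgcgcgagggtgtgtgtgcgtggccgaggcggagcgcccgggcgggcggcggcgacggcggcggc
In Ppfia2 the capitals lie near the end of the window, close to the start of the gene, and in Ptprt at its far end.

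Of 77 related synapse genes outside the set, 67 were tested, 31 were higher, 6 lower and 30 not called, with a median log2 fold change of 0.37. Of all genes tested, 17.2% were higher and 17.3% lower. An excess of higher genes was thus not particular to the members. The count of lower related genes was 3 against control replicates 2 and 3 alone, 3 without knockout replicate 1 or knockout replicate 3, and 10 without knockout replicate 4. The related genes were not tested against the members. The adhesion genes Cadm3 (144 ± 16.1 and 421 ± 113, log2 fold change 1.51), Clstn3 (1.36) and Cadm4 (0.85) and the scaffold gene Tanc2 (1.03) had the smallest p among those higher. Ptpru, a paralogue of Ptprt, was lower by 1.30 (379.5 ± 46.0 and 158 ± 46.0, log2 fold change -1.30, adjusted p = 0.000353), the opposite direction. Tanc1 (-0.63), Sipa1l1 (-0.38) and Flrt2 (-0.36) were also among the lower genes. Against control replicates 2 and 3 alone, Tanc1 (adjusted p = 0.0776) and Sipa1l1 (0.111) no longer passed, and Sipa1l1 did not pass without knockout replicate 1 (0.0542) or knockout replicate 3 (0.0548) or with the replicate block (0.0560). Of 9 further genes of inhibitory synapses 4 were higher and 0 lower, and of 19 tested excitatory scaffolds 6 were higher and 3 lower. All 6 lists had more genes higher than lower, and the difference between them was not tested.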

How the data were processed

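RNA was measured in 9 MGE libraries (4 control, 5 knockout). The deposited values are a signal that is never negative, made by the authors: within a library they are multiples of 1 step, whole to within 0.01, as reads divided by a size factor would be. The factors estimated from the steps were 0.989 to 1.05. Because the steps lie so near 1, the recovered reads were used only to describe depth. The submitters' processing notes name the mm10 build, DESeq2, HTSeq 0.9.1, TopHat2 2.1.1 and R 3.4.0, with no role for each. The sources used here do not give the annotation release or strand setting. No count model was fitted. Of 48526 genes, 48058 matched a symbol and gene model in GENCODE M21, which also gave positions and exon lengths, and 17677 were at 0 in every library.

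Genes with a mean of 10 or more (13780) were fitted with limma 3.58.1 under R 4.3.3, with its trend and robust options (statmod 1.5.0). The fit took log2(normalized count + 1), tests were two-sided, and p was adjusted by Benjamini-Hochberg and called under 0.05. Fold changes on this scale understate the change of low genes. Levels per kilobase are normalized counts divided by exon length. The procedure was tested on simulated data, in which few genes changed and variability was set alike for all. Genes as variable as Dlg2 or Nxph4 were thus not covered by it. Members, gene lists and alternatives were chosen with earlier results of these data known, so patterns in them are not independent support. The rule for named genes gave values in every library for members that fell or rose by at least 1. Related genes were named, without values in every library, for the 4 with the smallest p that rose and the 4 that fell. Marker lists were given by their sums, with the first marker named for some lists. Dlg4, Nlgn2, Cntnap5a, Il1rapl1, Ctnna1 and Ctnna2 were given in full, and family shares, host genes, gene spans and motifs examined, after their values were seen.

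Alternatives were pseudocounts of 0.5 and 8, no minimum, a minimum of 50, scaling by TMM or by upper quartile, limma with neither option, the replicate number as a block, each library left out, and control replicates 2 and 3 only.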

Additional observations from a re-analysis of the deposited data

Results flagged for a closer look

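In 7 of 98 groups of libraries (the members and Ctnnb1, controls and knockouts separately), 1 library lay apart from the rest by Dixon's test. Chance alone flags about 1 group in 20. Control replicate 1 was low for Homer3 (332 normalized counts) and high for Lrfn5 (30.3) and Lrrtm3 (6.06). Control replicate 4, the heterozygous one, was low for Slitrk3 (13.0), and control replicate 2 was high for Lrfn2 (21.9). Knockout replicate 5 was high for Nxph4 (34.3) and Lrfn5 (32.2). Of these genes Slitrk3 alone was called, and it was called under every alternative that gave a value.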

How the results depend on the processing

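Of the 27 called members, 23 (21 higher, 2 lower) were called under each of the 18 alternatives that gave them a value, and no called value changed direction. Against control replicates 2 and 3 only, 2 members were lower (0 scaffolds), and over all genes 1370 were higher and 1108 lower, a fit with fewer libraries. Homer2 (-0.70, adjusted p = 0.0807) and Slitrk5 (-0.44, 0.145) were the 2 lost. Related genes called lower numbered 6, 3 against control replicates 2 and 3 only, and 3 to 10 with each library left out (3 without knockout replicate 1 or knockout replicate 3, 10 without knockout replicate 4). The cause was not tested. With each library left out, 23 to 25 members were higher and 4 lower.

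With the replicate block 21 members were higher and 4 lower, without Nrxn3 (adjusted p = 0.0505) and Ptprt (0.0608), and 25 related genes were higher and 5 lower. The correlations showed no pairing by number. Deviations of same-numbered libraries correlated at -0.12, -0.09, 0.14 and -0.04, and those of differently numbered ones at -0.21 to 0.31. Shared litters or batches were not tested. Of the uncalled members, 4 (Dlg2, Lrfn1, Lrfn2 and Lrfn5) passed under some alternative. Members with means near 10 rest on low counts, and the estimated depth of 5120585 to 5569444 reads limits what can be said of the 5 untested genes.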
